A study of Drosophila melanogaster with 3 samples.

Results

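The 7 genes described here set how fly cells receive and clear the steroid hormone ecdysone: EcR and usp (the receptor), tai and Smr (its coactivator and corepressor), E23 (an exporter), Oatp74D (an importer) and Cyp18a1 (a hormone-inactivating enzyme). They were taken as a named list, all 7 were matched in the annotation among 13968 protein-coding genes, and every peak in a gene body or within 5 kb of it was collected. The peaks came from chromatin immunoprecipitation and sequencing (ChIP-seq) with an anti-GFP antibody on whole Drosophila melanogaster prepupae, male and female together. The transgenic line stably expressed CG11762, the zinc-finger protein Ouib (ouija board), with GFP fused to its C terminus. All samples carried this fusion: there were 3 biological replicates of 1 group, the exact age was given as unknown, and no untreated or untagged sample was analysed here, so the data hold no comparison between conditions. The labels give neither the promoter nor the cells in which the fusion was made, and in whole animals the tissue behind a peak cannot be told.

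Ecdysone enters cells through Oatp74D and, once made into its active form, binds EcR, which pairs with Usp on DNA. The paired receptor recruits Taiman to activate genes and Smr, related to the vertebrate SMRT and NCoR proteins, to repress them. E23 is an ABC transporter that is itself induced by ecdysone, and Cyp18a1 is a cytochrome P450 that inactivates the hormone, so both lower the hormone that reaches the receptor. Ouib is known from the prothoracic gland, the gland that makes ecdysone. The question put to the peak lists was at which transcription start site (TSS) or intron of these genes the tagged protein was enriched, and how evenly the replicates showed it.

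Of the 7 genes, 6 had at least 1 peak in the authors' optimal list of 5048 peaks, and Cyp18a1 had none. Over all protein-coding genes this share was 43.5%. The authors' reproducibility threshold gave the optimal list. At these genes its peaks had the same rank by signal as in the pooled list, called on all replicates together. Inclusion there thus followed the pooled signal, and an optimal peak need not be strong in each replicate. The 6 genes held 36 optimal peaks, which made 31 separate regions once overlapping peaks were joined: 10 peaks at tai, 9 at Smr, 7 at Oatp74D, 5 at E23, 4 at EcR and 1 at usp. Long genes collect more peaks, so each gene is best read against genes of its own length. An optimal peak was present at 66.5% of the 313 genes of 50 kb or more, the class of EcR, tai and Smr. It was present at 63.4% of the 697 genes of 15 to 30 kb, the class of E23 and Oatp74D, and at 38.4% of the 10476 genes under 5 kb, the class of usp and Cyp18a1. As many peaks as at Oatp74D, or more, were found at 3.30% of the genes of its class. The same share was 8.63% for tai, 9.33% for E23, 12.5% for Smr, 37.1% for EcR and 38.4% for usp. EcR, at 81.2 kb nearly as long as tai at 83.4 kb, thus held a number of peaks ordinary for its length. These counts include peaks outside the gene and within 5 kb of it. Only 4 of the 7 peaks at Oatp74D and 3 of the 5 at E23 lay in the gene body.

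**Figure D1:**
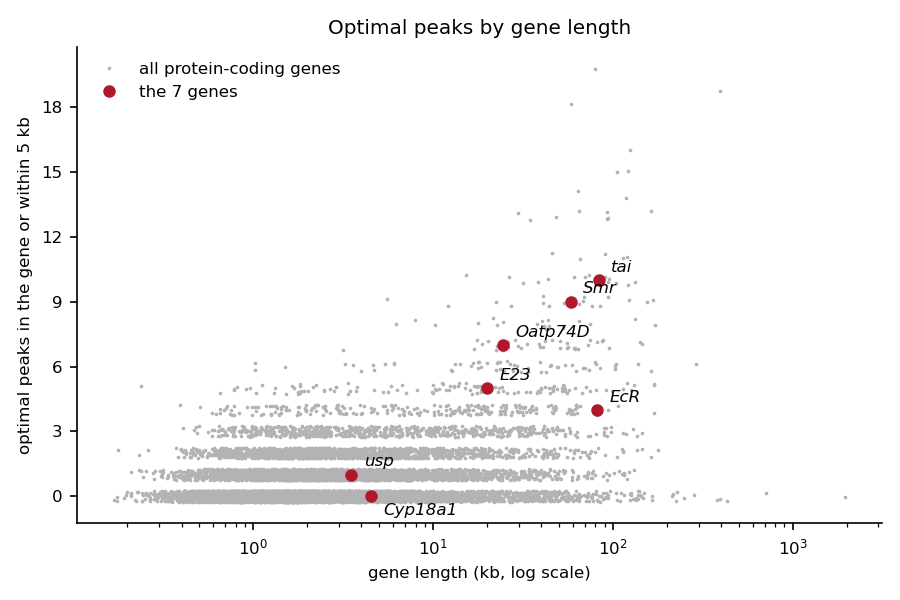
Optimal peaks in the gene body or within 5 kb (vertical axis, a count; grey points spread slightly up and down so that they can be seen) against gene length in kb on a log axis, for all 13968 protein-coding genes (grey) and the 7 genes (red). Oatp74D with 7 peaks, E23 with 5, Smr with 9 and tai with 10 lie high among genes of like length, and EcR with 4 lies lower.

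The sequences under 6 of these peaks are shown first. They are the peak of highest signal at each of usp, tai, Smr, E23 and Oatp74D, and the promoter peak of tai. No EcR sequence is shown. Several peaks not shown, such as the strongest at EcR, had more signal than the usp and tai promoter peaks. Each sequence is the forward strand of dm6, 5′ to 3′, from the NCBI copy of the assembly. It is centred on the peak's summit and at most 200 bp long. Exons were left out, which shortened the usp window to the 74 bp of an intron and the tai promoter window to 191 bp. Capitals mark matches to TATAAAA, the core of a promoter's TATA box, or to GAGAG, read by the GAGA factor, on either strand. A match's distance from a TSS and its strand relative to the gene were not considered, so a match is not shown to be a working TATA box.
usp, promoter peak, chrX:2041387-2041460: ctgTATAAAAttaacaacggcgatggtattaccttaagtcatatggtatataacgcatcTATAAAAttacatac
tai, strongest intron peak, chr2L:9211293-9211492: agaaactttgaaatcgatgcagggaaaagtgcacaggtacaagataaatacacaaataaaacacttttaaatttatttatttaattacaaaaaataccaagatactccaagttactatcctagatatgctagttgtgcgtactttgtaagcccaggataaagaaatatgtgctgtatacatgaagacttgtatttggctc
tai, promoter peak, chr2L:9166515-9166705: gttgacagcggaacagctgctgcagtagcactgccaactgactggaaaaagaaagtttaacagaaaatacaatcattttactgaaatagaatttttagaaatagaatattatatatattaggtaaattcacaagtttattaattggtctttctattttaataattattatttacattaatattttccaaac
Smr, strongest intron peak, chrX:12735587-12735786: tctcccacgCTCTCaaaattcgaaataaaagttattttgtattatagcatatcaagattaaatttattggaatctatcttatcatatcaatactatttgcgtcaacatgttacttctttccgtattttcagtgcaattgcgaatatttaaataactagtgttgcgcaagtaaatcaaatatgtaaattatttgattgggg
E23, promoter peak, chr2L:3354979-3355178: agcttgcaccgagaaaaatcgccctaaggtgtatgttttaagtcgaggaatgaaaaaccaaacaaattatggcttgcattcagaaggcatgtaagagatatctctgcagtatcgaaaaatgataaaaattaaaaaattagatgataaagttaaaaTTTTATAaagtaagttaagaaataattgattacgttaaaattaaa
Oatp74D, strongest intron peak, chr3L:17496943-17497142: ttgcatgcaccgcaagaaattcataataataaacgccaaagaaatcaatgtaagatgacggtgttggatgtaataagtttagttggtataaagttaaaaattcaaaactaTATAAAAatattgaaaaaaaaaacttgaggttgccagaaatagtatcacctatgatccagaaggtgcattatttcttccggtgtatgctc
The usp intron carries 2 TATAAAA matches, the E23 and Oatp74D windows 1 each, and the Smr window 1 GAGAG match. Neither tai window holds any of the 7 motifs searched. The windows are rich in A and T: their G and C content was 39.0% at usp, 31.5% and 27.5% at tai, 28.5% at Smr, 28.0% at E23 and 31.5% at Oatp74D, measured over the full 200 bp.

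Over all 36 windows of 200 bp the median G and C content was 33.25% (22.5 to 53.0%), beside 33.5% over the 5048 optimal windows. TATAAAA stood in 11 of the 36 windows (30.6%), against 18.0% of all optimal windows, and GAGAG in 10 (27.8%) against 21.7%. The windows with TATAAAA belonged to usp, tai, Smr, E23 and Oatp74D and included none of the 4 at EcR. AGGTCA, the half-site read by many nuclear receptors, stood in 0 of 36 windows and in 202 of the 5048 optimal windows. The ecdysone response element was sought as an inverted repeat, with 1 base between, of the looser half-site [AG]G[GT]TCA, where brackets give alternative letters. It was found in 0 of 36 and in 1 of 5048. TATCGATA, the DRE motif, was in 0 of 36 against 1.43%, GGTCACAC, the M1BP motif, in 0 against 1.03%, and CACGTG, an E-box, in 1, at Oatp74D, against 1.68%. A match describes letters in a window, and neighbouring windows at 1 gene can overlap.

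Signal scales differed between the lists, so a replicate's peak is given below as its relative signal, the authors' signal divided by the median of that replicate's 5048 best peaks. A value of 1 is therefore a typical strong peak of that library. The strongest peak of E23 had the highest mean relative signal, 3.73 ± 0.270 (SD, n = 3, as for all means here), followed by Smr at 3.22 ± 0.509. The replicate ranges of these 2 peaks overlapped. Both lay above the strongest peak of every other gene: the lowest Smr replicate was at 2.65, and the highest replicate of the strongest tai peak was 2.03. Next came tai (1.82 ± 0.326), EcR (1.71 ± 0.247) and Oatp74D (1.61 ± 0.399), whose replicates overlapped one another. The single usp peak was lowest at 0.765 ± 0.0221, with its highest replicate (0.790) under the lowest of any other gene's strongest peak (1.15, Oatp74D in replicate 1). No test was made of this order, because the peaks are of 1 group of samples and the replicate values show the spread directly.

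**Figure D2:**
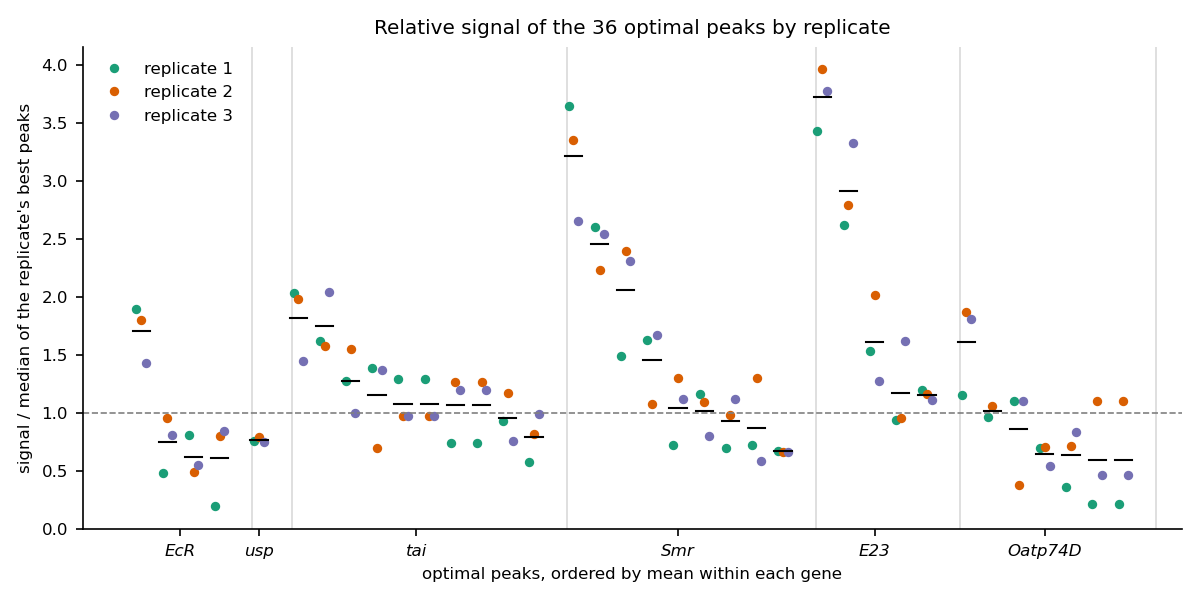
Relative signal (the authors' signal divided by the median of the replicate's best 5048 peaks) of each of the 36 optimal peaks in replicates 1, 2 and 3 (coloured points), with the mean as a black bar and the value 1 as a dashed line. Peaks are grouped by gene and ordered by mean. The E23 promoter peak and the strongest Smr intron peak stand highest, and the usp values nearly coincide.

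EcR (FBgn0000546, 2R:6087873-6169087, minus strand) encodes the hormone-binding partner of the receptor, and is known for isoforms from separate promoters, EcR-A upstream and EcR-B downstream. Its strongest optimal peak, at 6134507-6134902, lay in intron 3 of EcR-RA, an intron of 56.8 kb, and 2783 bp upstream of the downstream TSS shared by EcR-RB and EcR-RC (6131922). The TSS of CG14589 was slightly nearer, at 2598 bp. Its relative signal was 1.90, 1.80 and 1.43 in replicates 1, 2 and 3, above 1 in each, and it ranked 940 of 5048. A pair of weaker optimal peaks lay between it and that TSS. The peak 2173 bp upstream had 0.484, 0.958 and 0.807, and the peak 1132 bp upstream had 0.809, 0.493 and 0.552, so all of these values were under 1. The TSS itself had no optimal summit within 500 bp, but a peak of the pooled list, called on all replicates together and reaching further down, lay 349 bp upstream at a signal of 52.0 (relative signal 0.866, 0.358 and 0.558), below the lowest optimal signal of 61.1.

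The fourth optimal EcR peak, 6157247-6157642 in intron 1, was the gene's promoter peak, 316 bp upstream of the TSS of EcR-RD and EcR-RE (6157129). These transcripts share the start codon of EcR-RA. Replicates 2 and 3 gave it 0.804 and 0.846. Replicate 1 gave 0.195, from its highest overlapping peak, at rank 26273 of its list with a summit 348 bp away. It also listed a slightly weaker overlapping peak, rank 27878, with its summit 265 bp upstream of the same TSS. The higher values thus came from replicates 2 and 3. The TSS of EcR-RA, the most upstream one (6169087), had its nearest optimal summit 11642 bp away and its nearest pooled summit 2334 bp away.

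Usp (usp, FBgn0003964, X:2038798-2042311, minus strand) is the partner that EcR needs to bind DNA. Its 1 optimal peak, 2041225-2041620, had its summit 111 bp upstream of the TSS of usp-RA and inside intron 2 of usp-RB, the 74 bp intron printed above. The same position lies inside Actn, an overlapping gene, so the peak cannot be assigned to usp alone. Its relative signal was 0.759, 0.790 and 0.747. These are the most even values of the strongest peaks of the 6 genes, all under the typical strong peak. At the upstream TSS of usp-RB a pooled peak lay 50 bp away with a signal of 42.9, listed in replicates 1 and 2 (0.508 and 0.409) and not in replicate 3. An Actn TSS lay at the same distance from its summit, which was inside CG4313, so this peak too cannot be assigned to usp alone.

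Taiman (tai, FBgn0041092, 2L:9166778-9250211, plus strand) is a coactivator that binds the hormone-bound receptor. Most of its optimal peaks, 7 of 10, lay in intron 2, which is 42.2 kb long. The strongest of them, 9211195-9211590, had relative signals of 2.03, 1.98 and 1.44 and lay 35035 bp downstream of the nearest own TSS. The other intron 2 peaks had means from 0.796 to 1.28 and made a group of 3 between 9205195 and 9207521, 1 peak at 9224446-9224841 and an overlapping pair at 9231765-9232360. The nearest protein-coding TSS to any of the 7 was 18879 bp away, that of aust.

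At the tai promoter an overlapping pair of peaks flanked the TSS at 9166778, with summits 172 bp upstream and 47 bp downstream, the second in the untranslated first exon. The same replicate peaks matched both, with 0.738, 1.27 and 1.20. The upstream summit was also 92 bp from the TSS of CG9586, a gene on the other side, so the pair cannot be assigned to tai alone. A separate and stronger peak stood 1712 bp into the gene, in intron 1, with 1.62, 1.58 and 2.04. The second tai TSS (9176358) had only a pooled peak 117 bp upstream, with a signal of 52.2 and relative signals of 0.564, 0.473 and 0.468.

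Smr (FBgn0265523, X:12684203-12742618, minus strand) is a large corepressor that receptors use in the absence of hormone. All 9 of its optimal peaks were in introns: 4 in intron 1, 4 in intron 2 and 1 in intron 6. The strongest, 12735489-12735884 in intron 1, had relative signals of 3.64, 3.35 and 2.65 and ranked 245 of 5048. A neighbour slightly further into the gene, at 12734702-12735097, had 2.60, 2.23 and 2.55, so this intron held a pair of peaks above 2 in every replicate. The remaining intron 1 peaks were lower, at 1.63, 1.08 and 1.67 for 12737206-12737601 and at 1.16, 1.09 and 0.804 for 12737921-12738316.

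In intron 2 of Smr the peak 12719153-12719548 had 1.49, 2.39 and 2.31, and 3 overlapping peaks between 12724592 and 12725553 had means of 0.869 to 1.05. The middle peak of the 3 had the highest mean but no replicate value of its own. In replicates 1 and 2 it was matched to the same peak as the first, and in replicate 3 to the same peak as the last. All 4 intron 2 peaks also lie inside the long noncoding RNA gene lncRNA:CR43963. The intron 6 peak was weak and even, at 0.676, 0.668 and 0.665. No Smr TSS had an optimal summit nearer than 3951 bp. The closest pooled peak, 90 bp from the TSS of Smr-RE, had a signal of 19.3 and was listed in replicate 1 alone.

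E23 (FBgn0020445, 2L:3334875-3354829, minus strand) had the strongest peak of the 7 genes, and it was at the promoter. The peak 3354956-3355107 had its summit 250 bp upstream of the gene's TSS. Its relative signal was 3.43, 3.97 and 3.78, it ranked 155 of 5048, and it stood at ranks 225, 147 and 148 of the replicates' own lists. The summits in the replicates lay 9, 9 and 18 bp from it. A peak in intron 2, 3348215-3348389, was weaker, at 2.62, 2.79 and 3.32, and ranked 335. Its highest replicate was below the promoter peak's lowest. These 2 E23 peaks and the 2 strongest Smr peaks were the members' 4 peaks (11.1%) among the 500 of highest signal, against 9.9% of all optimal peaks.

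The same E23 intron, 14.0 kb long, held 2 more optimal peaks, 3338780-3339175 with 1.54, 2.02 and 1.28 and 3346059-3346454 with 1.20, 1.16 and 1.11. The fifth E23 peak, 1610 bp upstream, lay nearer to the TSS of CG8838 (1207 bp) and had 0.938, 0.958 and 1.62. Among 1665 other optimal peaks that had a summit within 500 bp of a protein-coding TSS and were listed in all 3 replicates, those with values nearest to the E23 promoter peak were at fok, CG8034 and Mal-A5. Their Euclidean distances over the 3 log2 relative signals were 0.0863, 0.129 and 0.142. The fok peak had 3.44, 3.93 and 3.56.

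Oatp74D (FBgn0036732, 3L:17487118-17511693, plus strand) is the importer through which ecdysone crosses the cell membrane. Its strongest optimal peak, 17496845-17497240 in intron 2, had relative signals of 1.15, 1.87 and 1.81, higher in replicates 2 and 3. It lay 2163 bp from the TSS of edin and 9409 bp from the nearest TSS of Oatp74D. A second intron 2 peak, 17495405-17495800, had 0.964 and 1.06 in replicates 1 and 2 and no listed peak in replicate 3, the only one of the 36 optimal peaks missing from a replicate's list. It was closer still to the TSS of edin, at 723 bp. The 2 peaks of intron 3 had 0.699, 0.707 and 0.546 at 17502241-17502636, and 0.360, 0.717 and 0.834 at 17506687-17507082.

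The other 3 Oatp74D peaks lay outside the gene and close to other genes. The upstream peak, 1511 bp from the TSS of Oatp74D, was inside CG6333 and 623 bp from that gene's TSS, with 1.10, 0.380 and 1.10. The downstream pair was 90 bp from the TSS of U4-U6-60K and 97 bp from that of CG7564. One peak in each replicate matched both, at 0.220, 1.10 and 0.463, so the pair was above 1 in replicate 2 only. Oatp74D had no optimal promoter summit, though a pooled peak 136 bp upstream of its first TSS fell just short, with a signal of 59.0 against the lowest optimal signal of 61.1. That peak had 0.289, 0.653 and 0.671.

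Cyp18a1 (FBgn0010383, X:18688538-18693042, minus strand), whose product inactivates the hormone, had no optimal peak. The nearest optimal summit was 41376 bp from the gene body and 45582 bp from its nearest TSS. Of its 5 pooled peaks the highest had a signal of 26.2 at rank 13647 of 30000, in the first coding exon 722 bp from a TSS. Replicates 1 and 2 listed it at 0.281 and 0.417, and replicate 3 did not list it. The weakest of the 5 had a signal of 15.7.

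**Figure D3:**
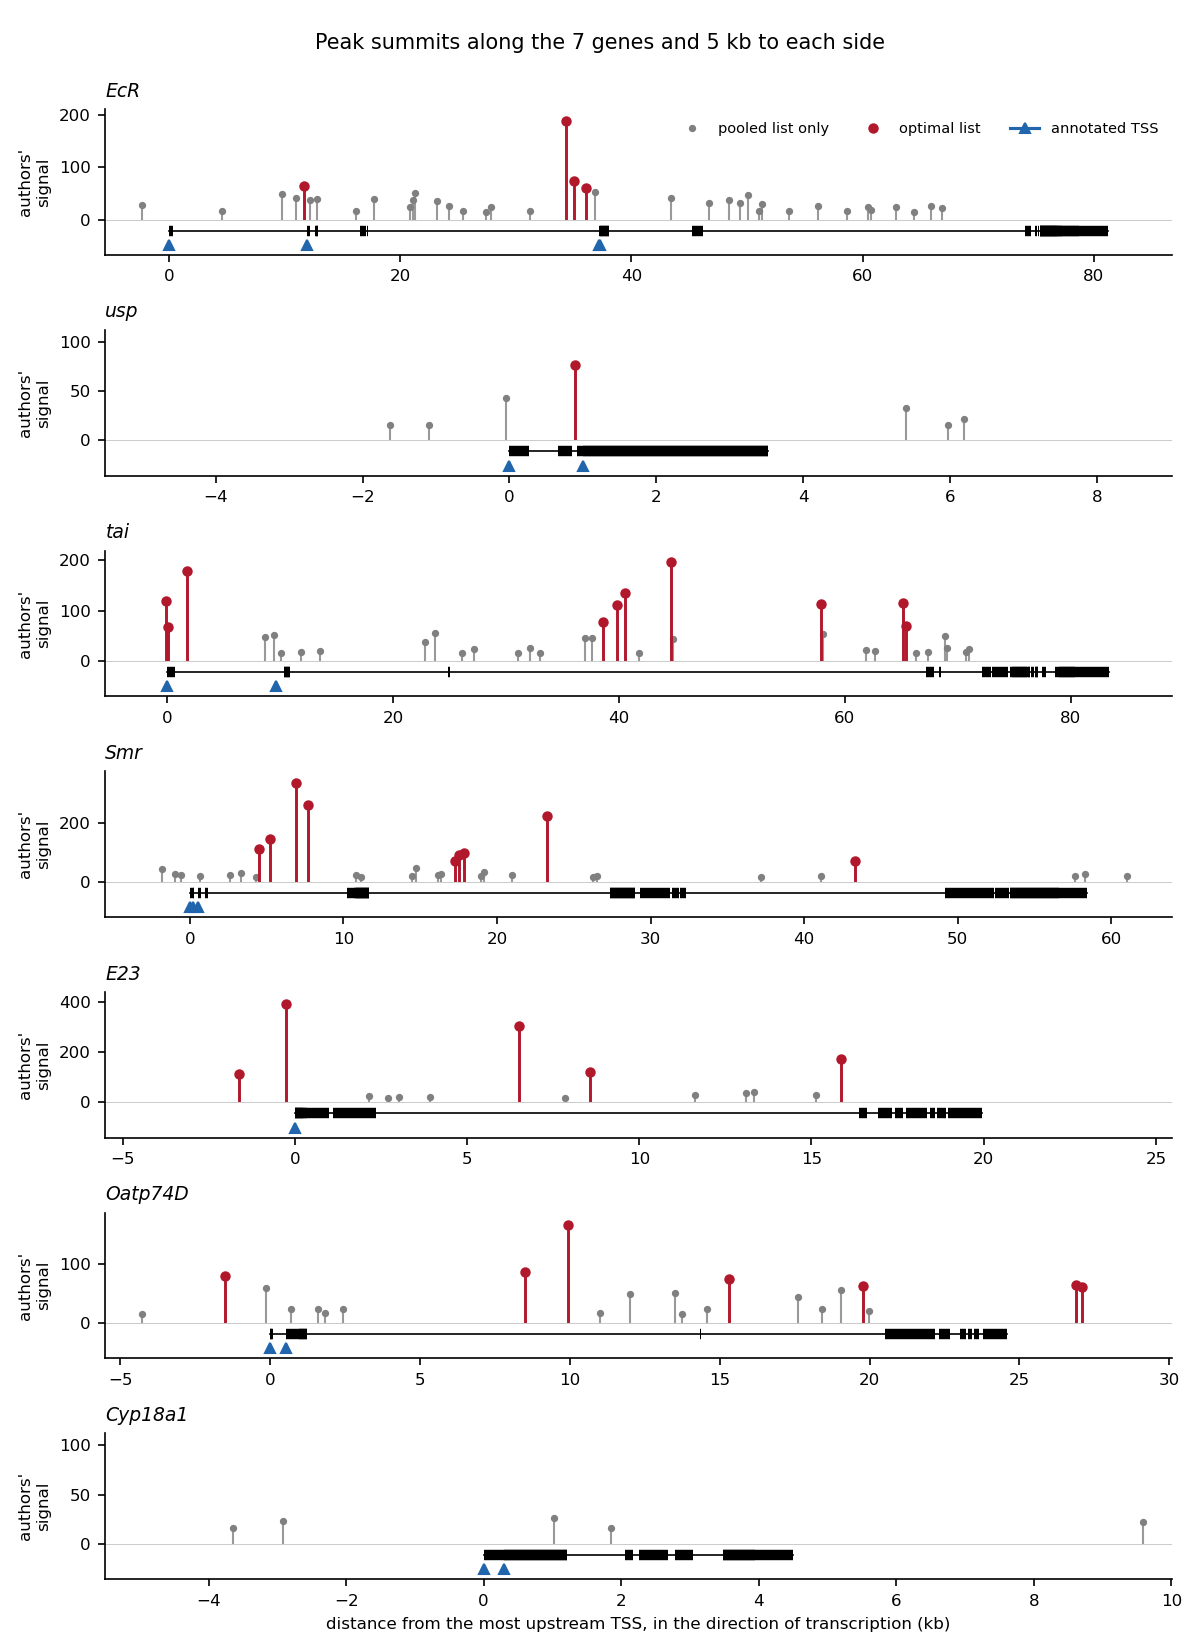
Peak summits along each of the 7 genes and 5 kb to each side, as distance in kb from the most upstream TSS in the direction of transcription, with the authors' signal in the pooled list as height. Red marks optimal peaks, grey marks peaks of the pooled list only, black boxes are exons and blue triangles TSSs. Tall peaks stand in intron 1 of Smr and just upstream of E23, and Cyp18a1 carries only grey marks.

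By position the 36 summits fell in 29 cases in an intron of the gene, in 1 case in an untranslated exon, in 4 upstream and in 2 downstream. None was in a coding exon, and 1 of 36 (2.78%) was in any exon of a protein-coding gene, against 7.23% of all optimal summits. An own TSS lay within 500 bp of 5 summits (13.9%), and the TSS of any protein-coding gene within 500 bp of 7 (19.4%), against 33.6% of all optimal summits. By gene, 4 of 7 had an optimal promoter summit (EcR, usp, tai and E23), against 14.8% of all protein-coding genes. These genes have 16 annotated TSSs in all, and 4 of the 16 had an optimal summit within 500 bp. With the pooled list 12 of 16 had one, at 6 of the 7 genes, against 40.1% of all protein-coding genes. A gene with more TSSs has more chances to be counted, which these shares do not adjust for.

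The median signal of the 36 peaks was 111.1, beside 101.6 for all optimal peaks, and 19 of 36 lay above the latter. The replicates listed nearly all of them: 35 of 36 overlapped a listed peak in every replicate. Asked for among each replicate's 5048 best peaks, 25 (69.4%) were found in all 3, beside 66.4% of all optimal peaks, 8 in 2 and 3 in 1. By gene this held for 1 of 7 peaks at Oatp74D, 1 of 4 at EcR, 8 of 9 at Smr, 9 of 10 at tai, 5 of 5 at E23 and the 1 at usp. Overlapping optimal peaks can share a replicate's peak, as in the overlapping pairs at tai and the middle of the overlapping Smr peaks. These are therefore not counts of separate sites.

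The pooled list held 153 peaks at the 7 genes, from 38 at EcR and 35 at tai to 5 at Cyp18a1, with 32 at Smr, 22 at Oatp74D, 14 at E23 and 7 at usp. Of these 23.5% were optimal peaks, beside 16.8% of the whole pooled list. In all 84 of 153 (54.9%) overlapped a listed peak of every replicate, beside 46.3% of the whole list. Among the 117 that were not optimal, 49 (41.9%) did so. At EcR 4 of the 38 were optimal, and 14 of the weaker ones were in every replicate's list. The replicates' own lists, of 30000 peaks each, held 60, 31 and 49 peaks at EcR in replicates 1, 2 and 3, the widest spread of the 7 genes. They held 47, 34 and 29 at tai, 33, 25 and 28 at Smr, and 17, 11 and 15 at E23. At Oatp74D they held 23, 18 and 17, at usp 7, 5 and 6, and at Cyp18a1 5, 6 and 4.

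**Figure D4:**
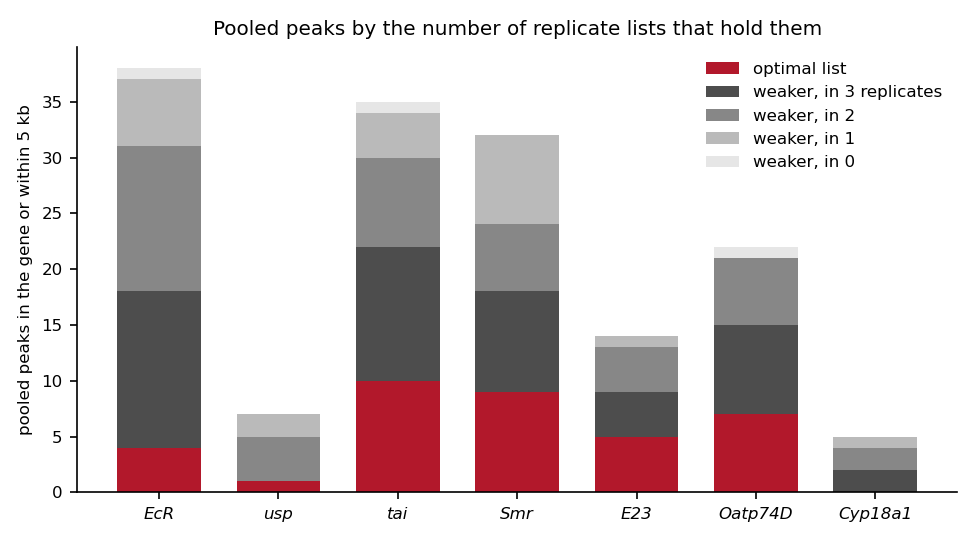
Number of pooled peaks at each gene, split into optimal peaks (red) and weaker peaks by how many of the 3 replicate lists hold an overlapping peak (grey, darker for more). EcR has 38 peaks of which 4 are optimal, while E23 has 14 of which 5 are optimal.

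Other genes of related functions were counted from wider lists, which are broader than ecdysone action. The first list held 21 further genes, mostly receptor cofactors and chaperones, with the receptor genes Hr38, svp and DopEcR among them. Of the 21, 14 (66.7%) had an optimal peak within 5 kb, against 43.5% of all protein-coding genes, and 4 (19.0%) an optimal promoter summit, against 14.8%. These 4 were the chaperone gene Hsp83 (mean relative signal 1.77 ± 0.370), the corepressor Sin3A (1.85 ± 0.333), ebi (1.13 ± 0.211), which acts with Smr, and the chaperone gene Hsc70-4 (0.744 ± 0.277). The second list held 13 further genes of uptake, export and turnover, with the eye-pigment transporter genes w, st and bw among them. Of the 13, 6 (46.2%) had an optimal peak within 5 kb and 3 (23.1%) a promoter summit, beside the same 43.5% and 14.8%. These shares are not adjusted for gene length. The 3 were Oatp30B, an Oatp-family transporter (2.19 ± 0.331), and the ABC transporter genes Atet (1.09 ± 0.182) and w (0.716 ± 0.358). None of these 7 promoter peaks reached the E23 promoter peak, whose lowest replicate was 3.43.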

How the data were processed

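ChIP-seq peak lists on the dm6 build were used, from 3 samples labelled as biological replicates 1, 2 and 3. According to the submitters' deposited file lists, peaks of each replicate were called against 1 control alignment that all replicates shared. The pooled list was called on all 3 alignments, and a threshold on the irreproducible discovery rate then gave the optimal list. The aligner and the peak caller are not given in the sources used. The control and the dm3 lists were not analysed here. The values used are the authors' signal per peak, whose scale is not stated. Their −log10 q-values, read so from the layout of the deposited lists, were not used for ranking. The lists hold no read counts, so depth is unknown and only the spread of the 3 replicates shows precision.

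Peaks were assigned by overlap of 1 bp with the gene body extended by 5 kb, and a summit within 500 bp of an own TSS was called a promoter summit. A replicate's value is its peak of highest signal overlapping by 1 bp or more. Optimal peaks were all rows of the pooled list, and those at the 7 genes had the same rank by signal in both lists. Gene models were from Ensembl release 115 (BDGP 6.54), and positions count from 1. Motifs were sought on both strands in 200 bp windows, and matches of different motifs may overlap. The counting was tested on simulated peaks. The study has 1 group, so no test was made and counts over members and lists are set beside shares over all genes or peaks where these were computed. Named genes were the 7, the owners of TSSs nearest to their summits, the 3 most like the E23 promoter peak, and up to 4 of each further list, by promoter signal. The members, lists and motifs were chosen with earlier results of these data known. Computation was in Python 3.11.15 with numpy 2.4.6, pandas 2.3.3 and matplotlib 3.10.9. Alternatives covered windows, promoter distance, peak support, matching, scaling and each replicate left out in turn.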

Additional observations from a re-analysis of the deposited data

How the results depend on the processing

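Of 37 counts under alternatives, 8 moved by over 1.5 times. With the upper 50% of optimal peaks by signal, 19 peaks remained at the genes in place of 36, and 2 genes had a promoter summit in place of 4. Of the 153 pooled peaks, 84 were found in every replicate's list by 1 bp and 64 by 50% of the shorter interval. Motif windows went from 17 to 7 at 100 bp and to 26 at 400 bp. Asking for support from the other replicates when each was left out gave 92 to 105 pooled peaks, 26 to 29 optimal peaks, 6 genes with a peak and 3 to 4 with a promoter summit. Counting overlapping optimal peaks once, chosen after seeing the data, gave 31. The order of the strongest peaks was the same in 7 of 8 settings. Without replicate 1, Oatp74D came before tai and EcR. Of 48 relative signals, 12 were counted as moved, by 1 SD or more, all under rescaling, which changes the unit. Percentile ranks, also among the 48, have another unit and were judged by place in the order, not by SD. No paired analysis was possible because the samples form 1 group. Depth is unknown, and the 30000 listed peaks set the weakest enrichment that could be seen.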

Other observations

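The EcR window also holds 16 tRNA genes, most of them within its long introns or just upstream of it. Of these, 5 had a summit of the pooled list within 500 bp, and the nearest optimal summit to any of them was 3866 bp away. The share over all tRNA genes was not computed. The pooled peak 75 bp from tRNA:Lys-CTT-1-5 had a signal of 27.1. With only 4 optimal peaks at EcR and no such share, no conclusion is drawn from these distances.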
